A study of Mus musculus with 32 samples.

Results

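The clock genes described here were 10 of the 20076 genes in the count table: the activators Arntl, Clock and Npas2, the period genes Per1, Per2 and Per3, the nuclear receptor repressors Nr1d1 and Nr1d2, and the output genes Dbp and Ciart. They were chosen by name, as core parts and direct outputs of the circadian clock, with earlier results of these data known. They were followed across 8 groups of 4 male mice. The groups crossed genotype (MCAD-KO, which lacks the medium-chain acyl-CoA dehydrogenase encoded by Acadm in every tissue, or littermate WT, both C57BL/6J), diet (low-fat, LF, or a high-fat palm oil diet, HF, for 6 weeks) and feeding state (fasted for 16 h, or fed, with the diet left in place). The labels give ages of 7.5 to 16 with no unit, which read as weeks for the young mice of a few months that the methods describe. Food was removed shortly before lights off and all mice were killed on the following morning, early in the light phase, within a short window of clock time that the methods set for every group. The time at which each single mouse was killed within that window is not given in the sources used here, so whether the 8 groups differed in it was not tested, and any such difference was no longer than the window.

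Liver RNA was read by 3′ end sequencing, with total counts of 2031053 to 4292200 per mouse (median 2899001), so that 3 counts at the median depth correspond to 1.03 CPM, the unit of level used throughout (counts scaled to the library total after TMM normalisation). The targeted gene Acadm ran from 26 to 94 counts over the KO livers and from 566 to 2752 counts over those of WT, as the labels say. A pair of libraries stood apart. The library labelled KO HF fasted replicate 4 carried heart RNA: 12 heart markers added up to 41900 CPM (231 CPM or less in the 30 mice used), and 10 hepatocyte markers to 1010 CPM (51600 to 77800 CPM in those 30). WT LF fed replicate 2 had the lowest hepatocyte sum of the others (46600 CPM) and a stellate cell sum of 1070 CPM, against 460 to 688 CPM. Both were left out, which leaves 15 fed and 15 fasted mice (7 LF fed, 8 LF fasted, 8 HF fed and 7 HF fasted). All WT LF fed mice were on sequencing lane 8, and the other 7 groups were split over lanes 7 and 8.

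The mammalian clock is a transcriptional loop. ARNTL (BMAL1) pairs with CLOCK, or with its paralogue NPAS2, and binds E-boxes in front of the Per, Cry, Nr1d, Dbp and Ciart genes. PER and CRY proteins then repress this pair, and NR1D1 and NR1D2 (REV-ERB alpha and beta) repress Arntl and Npas2 through RORE elements, which the ROR receptors activate. In mouse liver Arntl and Npas2 are known to be high around the end of the night, when Dbp and the Nr1d genes are low, and the latter rise through the light phase. Per1 is also known to respond directly to glucocorticoids and to cAMP signalling, and the feeding rhythm is a strong time cue for the liver clock.

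Start-site windows (250 bases before to 50 bases after a RefSeq start, GRCm38.p6) were at hand for 9 of the 10 genes, Per2 being the gene without an entry. They were searched on both strands for the letters of the elements just named, because these elements tie the members to each other. The stretches with matches are shown 5′ to 3′ on the gene's strand, with the matched letters in capitals. The E-box (CACGTG) was present 3 times before the start of Ciart (at 116, 58 and 44 bases before it, chr3:95882252-95882359, minus strand) and once before a start of Per1 (at 166 bases before it, chr11:69098768-69098803, plus strand), against 7.15% of all 32851 windows.
Ciart: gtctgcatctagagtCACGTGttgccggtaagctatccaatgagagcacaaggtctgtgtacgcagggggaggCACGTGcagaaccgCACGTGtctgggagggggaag
Per1: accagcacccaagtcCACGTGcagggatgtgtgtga
The variant E′-box (CACGTT, here as its reverse complement AACGTG) stood 28 bases before the start of Nr1d1 (chr11:98775385-98775420, minus strand), against 4.68% of all windows.
Nr1d1: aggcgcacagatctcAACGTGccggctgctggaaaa
The D-box (TTATGTAA), the element that DBP itself binds, stood 205 and 158 bases before the start of Per3 (chr4:151044801-151044885, minus strand), against 0.938% of all windows.
Per3: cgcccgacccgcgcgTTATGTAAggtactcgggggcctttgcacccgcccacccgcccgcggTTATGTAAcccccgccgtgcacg
The RORE core (TAGGTCA) stood 30 bases after the second annotated start of Arntl (chr7:113207529-113207558, plus strand), against 2.61% of all windows.
Arntl: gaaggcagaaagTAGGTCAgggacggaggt
The cAMP response element (TGACGTCA, in 1.79% of all windows) had no match in the 9 genes, and Clock, Npas2, Nr1d2 and Dbp had no match to any of the 5 elements in these windows. A match is a run of letters only, and binding was not measured.

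The first comparison was fasted against fed, averaged over the 4 genotype and diet groups. Fasting raised Per1 (4.66-fold) and Dbp (2.88-fold) and lowered Npas2 (2.33-fold) and Arntl (1.65-fold), and the other 5 tested members did not pass. Of the 10 members 9 had enough counts to be tested (Ciart had not), and 4 of these 9 passed the edgeR quasi-likelihood test at an adjusted p of 0.05, 2 higher and 2 lower, against 18.9% of all 11566 genes tested (9.77% higher and 9.14% lower). The median log2 fold change of the 9 members was 0.15, against -0.0022 over all genes. The members therefore moved in opposite directions, and not as a block.

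**Figure D1:**
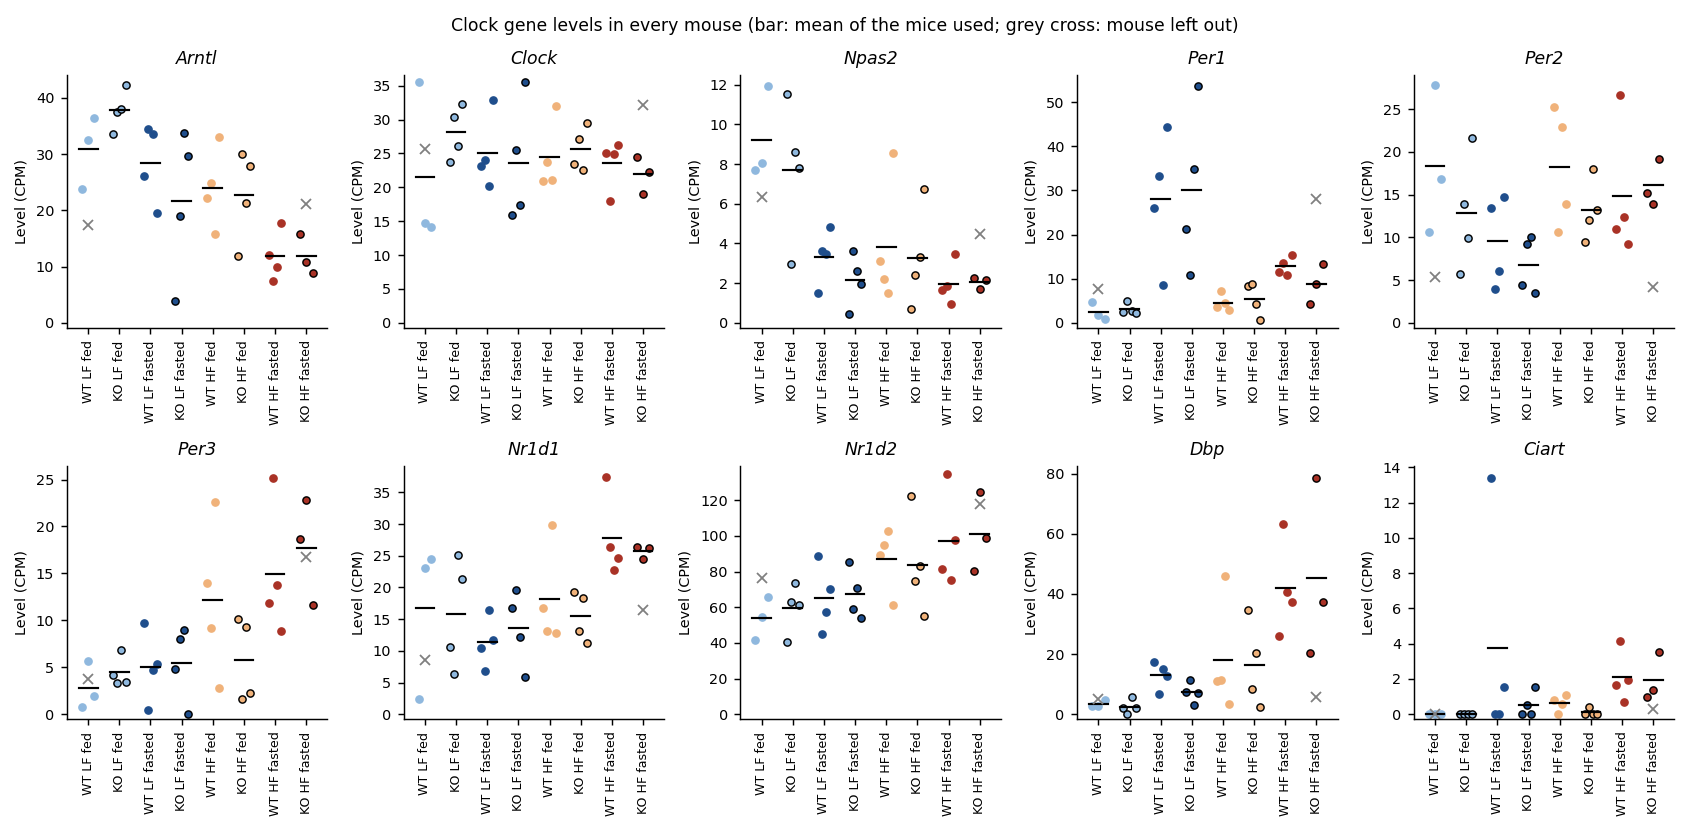
Level of each clock gene (CPM, linear axis from 0, 1 panel per gene) in every mouse of the 8 groups, with black-edged points for KO mice, bars for the group mean of the mice used and grey crosses for the 2 mice left out. Per1 lay between 8.63 and 53.6 CPM in the LF fasted mice and at or below 5.06 CPM in the LF fed mice, and Dbp was highest in the HF fasted mice, at 20.3 to 78.6 CPM.

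Of the activators, Arntl (chr7:113207465-113314126, GRCm38) encodes the obligate partner of the loop. Its level was 23.8, 36.4 and 42.2 CPM (lowest, median and highest) in LF fed mice and 3.97, 27.9 and 34.5 CPM in LF fasted mice. In HF fed mice it was 11.9, 23.5 and 33.1 CPM, and in HF fasted mice 7.52, 10.9 and 17.7 CPM. The HF fasted mice were thus all below every LF fed mouse, while fed and fasted mice overlapped on either diet. The fasting effect was -0.73 ± 0.19 (log2 fold change ± SE, adjusted p = 0.00466). The lowest value of all, 3.97 CPM, came from 9 counts in KO LF fasted replicate 1.

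Npas2 (chr1:39193731-39363236), which can stand in for Clock, was a low gene, with 1 to 37 counts per mouse. It was at 2.95, 8.05 and 11.9 CPM in LF fed and at 0.441, 3.04 and 4.81 CPM in LF fasted mice, so that 4 of the 8 LF fasted mice lay below every LF fed mouse. It was at 0.699, 2.75 and 8.53 CPM in HF fed and at 0.931, 1.88 and 3.47 CPM in HF fasted mice, where the ranges overlapped. No fasted mouse reached the median of the fed mice (6.73 CPM), and the averaged effect was -1.22 ± 0.30 (adjusted p = 0.00263). Clock itself (chr5:76209868-76304792) lay between 14.2 and 35.6 CPM in the 30 mice, with an averaged fasting effect of -0.08 (95% interval -0.34 to 0.19), so that the 2 partners of Arntl had different values in the same comparison. Whether they differ from each other was not tested.

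Per1 (chr11:69095217-69109960) had the largest change of the tested members. In WT LF fed mice it was at 4.81, 1.68 and 0.968 CPM, and in WT LF fasted mice at 26.1, 33.3, 8.63 and 44.3 CPM. In KO LF fed mice it was at 2.56, 5.06, 2.75 and 2.19 CPM, and in KO LF fasted mice at 21.2, 10.8, 34.8 and 53.6 CPM. Every one of the 8 LF fasted mice lay above every one of the 7 LF fed mice. On HF the fed values were 3.50, 7.32, 4.47 and 2.84 CPM in WT and 8.38, 8.79, 4.21 and 0.641 CPM in KO mice. The HF fasted values were 11.6, 13.5, 10.9 and 15.4 CPM in WT and 4.19, 8.85 and 13.3 CPM in KO mice, and here the ranges met. Over both diets 13 of the 15 fasted mice were above every fed mouse, and the averaged effect was 2.22 ± 0.30 (adjusted p = 2e-06).

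The other period genes did not pass in this comparison. Per2 (chr1:91415982-91459324) was at 5.77, 13.9 and 27.8 CPM in LF fed, 3.52, 7.65 and 14.7 CPM in LF fasted, 9.43, 13.5 and 25.3 CPM in HF fed and 9.25, 14.0 and 26.7 CPM in HF fasted mice. Its averaged effect of -0.45 (95% interval -0.89 to -0.02) had an adjusted p of 0.151. Per3 (chr4:151003652-151044665) was at 0.721, 3.44 and 6.87 CPM in LF fed, 0, 5.08 and 9.69 CPM in LF fasted, 1.60, 9.23 and 22.6 CPM in HF fed and 8.86, 13.7 and 25.2 CPM in HF fasted mice. Its averaged effect of 0.76 (95% interval -0.02 to 1.55) had an adjusted p of 0.185. The estimates for the 3 period genes thus did not share a sign.

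The REV-ERB genes did not pass either. Nr1d1 (chr11:98767932-98775333, which overlaps Thra on the other strand) was at 2.40, 21.3 and 25.1 CPM in LF fed and 5.87, 11.9 and 19.6 CPM in LF fasted mice. On HF it was at 11.2, 14.9 and 29.8 CPM in fed and 22.8, 26.3 and 37.4 CPM in fasted mice. All 7 HF fasted mice exceeded the HF fed median, whereas no LF fasted mouse reached the LF fed median, and the averaged effect was 0.15 (95% interval -0.34 to 0.64). The difference between these diet-specific effects was 1.04 ± 0.48, which did not pass (edgeR adjusted p = 0.335). Nr1d2 (chr14:18204054-18239127), the most abundant member in counts, lay between 40.7 and 135 CPM, with an averaged effect of 0.22 (95% interval -0.03 to 0.47).

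Dbp (chr7:45705088-45710203, which overlaps Sphk2 on the other strand) encodes the D-box factor that passes the rhythm on to metabolic genes. It was at 0, 2.68 and 5.84 CPM in LF fed mice and at 3.16, 9.42 and 17.5 CPM in LF fasted mice, 7 of which lay above every LF fed mouse. On HF it was at 2.24, 11.1 and 45.9 CPM in fed and at 20.3, 37.4 and 78.6 CPM in fasted mice, and all 7 HF fasted mice exceeded the HF fed median. The averaged effect was 1.53 ± 0.39 (adjusted p = 0.00649). Ciart (chr3:95878503-95882251), a repressor of the ARNTL pair, was close to the detection limit. No count was seen in any of the 7 LF fed mice (exact 95% interval for the share of mice with a count, up to 41.0%), and at least 1 count was seen in 4 of 8 HF fed, 4 of 8 LF fasted and 7 of 7 HF fasted mice. The 15 fed mice held 8 Ciart counts in all and the 15 fasted mice 93, of which 36 (13.4 CPM) were in WT LF fasted replicate 1. With no filter on low counts, the edgeR test of the averaged fasting effect gave Ciart an adjusted p of 2.8e-05, where 10.6% of all genes passed. By the same test the effect passed in WT LF (adjusted p = 0.00983), which holds the mouse with 36 counts. It did not pass in WT HF (adjusted p = 0.789), KO LF (adjusted p = 0.19) or KO HF (adjusted p = 0.431). No fold is given, since the LF fed mice of both genotypes were at 0.

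Left-out mice and lanes bore on these values as follows. With all 32 mice the same 4 members passed (13.5% of all genes did), with Per1 at 2.24, Dbp at 1.40, Npas2 at -1.10 and Arntl at -0.62. They also passed in each of the 30 fits that left out a single mouse. The fits within single lanes used a common fasting term over the genotype and diet groups. Their values are thus not the mean of 4 group effects that the main fit gives. Within lane 8 alone Per1 was at 3.25, Dbp at 1.97, Npas2 at -1.49 and Arntl at -0.71, and all 4 passed (11.6% of all genes passed). Within lane 7 alone, which had no WT LF fed mouse, none of the 4 passed (1.88% of all genes did): Per1 was at 1.18 (adjusted p = 0.142), Dbp at 1.33 (adjusted p = 0.304) and Arntl at -0.89 (adjusted p = 0.171), and Npas2 was under the filter.

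The second comparison asked what the HF diet did to the same genes. In fasted mice HF against LF, averaged over genotype, raised Dbp (4.36-fold), Nr1d1 (2.14-fold) and Nr1d2 (1.49-fold) and lowered Per1 (2.73-fold) and Arntl (2.08-fold). That was 5 of the 9 tested members, against 6.65% of all genes (3.75% higher and 2.90% lower), with a median log2 fold change of 0.58 for the members and 0.0009 for all genes. All 7 HF fasted mice were above all 8 LF fasted mice for Dbp and for Nr1d1. The share of all genes whose groups separate like this, here or for Per1 on LF above, was not counted. The log2 fold changes were 2.12 ± 0.50 for Dbp (adjusted p = 0.0109), 1.10 ± 0.34 for Nr1d1 (adjusted p = 0.0457), 0.58 ± 0.17 for Nr1d2 (adjusted p = 0.036), -1.45 ± 0.38 for Per1 (adjusted p = 0.017) and -1.06 ± 0.27 for Arntl (adjusted p = 0.0149). Per3 at 1.61 (adjusted p = 0.0612) and Per2 at 0.91 (adjusted p = 0.0744) fell short of the threshold, and Clock (-0.11) and Npas2 (-0.47) had intervals that spanned 0.

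These diet calls were lost in more settings than the fasting calls. With all 32 mice only Dbp passed (1.95, adjusted p = 0.0351), where 2.55% of all genes did. Arntl was lost with limma voom (-0.91, adjusted p = 0.0694) and Nr1d2 with a replicate block (0.56, adjusted p = 0.0659). Nr1d1 was lost with no filter on low counts (1.11, adjusted p = 0.107), with lane as a term (1.10, adjusted p = 0.0543) and with WT LF fed replicate 2 put back (1.10, adjusted p = 0.0523). In the other direction Per3 passed with DESeq2 (1.63, adjusted p = 0.0498), limma voom (2.16, adjusted p = 0.0176) and lane as a term (1.64, adjusted p = 0.045), and Per2 with DESeq2 (0.92, adjusted p = 0.042). The library with heart RNA belonged to this comparison, and it had 5.79 CPM of Dbp, 16.4 CPM of Nr1d1 and 28.0 CPM of Per1. Among the fits that left out a single mouse, Dbp passed in 30 of 30 and Arntl and Per1 in 29 of 30 each. Arntl was lost without KO HF fasted replicate 3 (adjusted p = 0.0601) and Per1 without KO HF fasted replicate 1 (adjusted p = 0.0659). Nr1d2 was lost in 8 fits (without replicates 2 and 3 of KO HF fasted, 2 and 4 of WT HF fasted, 2 and 4 of KO LF fasted, or 2 and 3 of WT LF fasted, adjusted p at most 0.121). Nr1d1 passed in only 13 of the 30 fits, and was lost when any single fasted mouse other than WT LF fasted replicate 3 or KO LF fasted replicate 2 was left out, and likewise for WT HF fed replicate 1 and KO HF fed replicates 1 to 3 (adjusted p at most 0.099). Within lane 7 alone Per1 (-1.49) and Nr1d1 (1.26) passed (2.13% of all genes), while Dbp was at 2.26 without passing. Within lane 8 alone Arntl was at -1.33, Per3 at 4.70 and Dbp at 1.95. Of the mice used, lane 8 held a single KO LF fasted mouse (replicate 4) and a single KO HF fasted mouse (replicate 3). That KO LF fasted mouse had 0 counts of Per3, so the Per3 value rests on few mice and a 0.

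**Figure D2:**
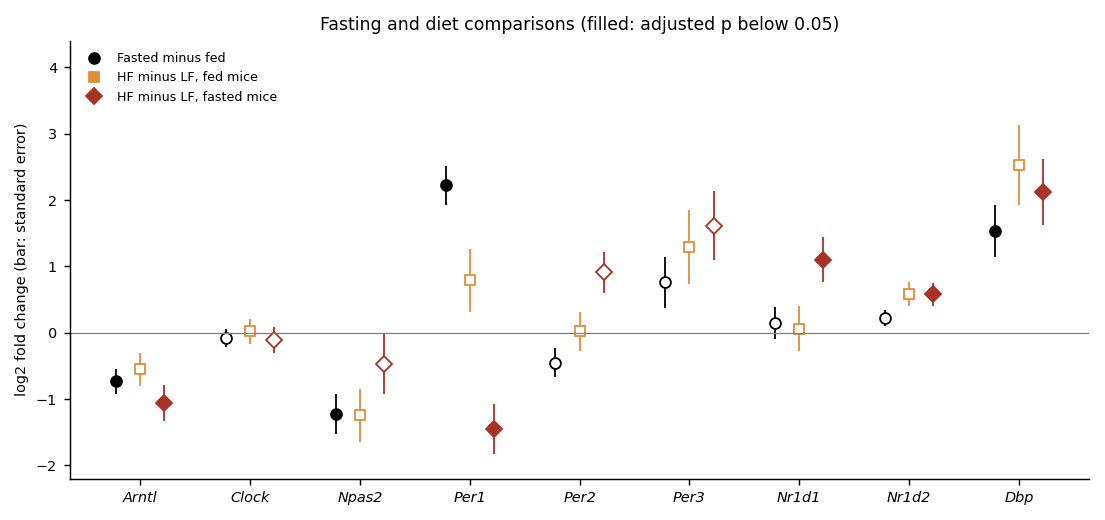
Log2 fold change with its standard error for the 9 tested clock genes in fasted against fed mice (black circles), HF against LF in fed mice (orange squares) and HF against LF in fasted mice (red diamonds), filled where the adjusted p was below 0.05. Dbp was above 0 in all 3 comparisons (1.53, 2.53 and 2.12) and Arntl below 0 in all 3 (-0.73, -0.55 and -1.06), while Per1 was at 2.22 with fasting and at -1.45 with HF in fasted mice.

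In fed mice no member passed for HF against LF, where 0.268% of all genes did (31 genes, while 1070 had an unadjusted p below 0.05). Among the members 5 had an unadjusted p below 0.05: Dbp at 2.53 ± 0.60 (adjusted p = 0.083), Nr1d2 at 0.59 (adjusted p = 0.183), Npas2 at -1.24 (adjusted p = 0.223), Per3 at 1.29 (adjusted p = 0.465) and Arntl at -0.55 (adjusted p = 0.497). Among the 8 HF fed mice 6 had more Dbp than any LF fed mouse. DESeq2 called Dbp in this comparison (2.54, adjusted p = 0.00195). Averaged over both feeding states, a comparison added after these values had been seen, HF raised Dbp (2.33 ± 0.39, adjusted p = 0.00112), Nr1d2 (0.59 ± 0.12, adjusted p = 0.00404) and Per3 (1.45 ± 0.38, adjusted p = 0.0322) and lowered Arntl (-0.80 ± 0.19, adjusted p = 0.0104), 4 of 9 tested members against 3.49% of all genes (2.26% higher and 1.24% lower). With all 32 mice Dbp (2.20) and Nr1d2 (0.56) passed (0.704% of all genes). Within lane 8 alone, where some groups held a single mouse, Arntl was at -0.82. Per3 passed in 22 of the 30 fits without a single mouse and the other 3 in all 30.

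The third comparison asked whether the fasting effect itself depended on diet. For Per1 it did in the fit used here: fasting raised it 10.7-fold in WT LF mice (3.41 ± 0.65, adjusted p = 0.00075) and 9.62-fold in KO LF mice (3.27 ± 0.58, adjusted p = 0.00024), whereas the estimates on HF were 1.49 ± 0.56 in WT (adjusted p = 0.341) and 0.71 ± 0.60 in KO mice (adjusted p = 0.908). The difference, HF minus LF, was -2.24 ± 0.60 (95% interval -3.48 to -1.01, adjusted p = 0.04), and Per1 was the 1 member of 9 to pass, against 2.46% of all genes. This call lay near the threshold. It was lost with all 32 mice (-1.67, adjusted p = 0.275), with WT LF fed replicate 2 put back (-1.98, adjusted p = 0.0956), with lane as a term (-2.24, adjusted p = 0.0637) and with limma voom (-1.90, adjusted p = 0.256). No filter on low counts and a replicate block lost the call as well. It was also lost in 21 of the 30 fits without a single mouse (-2.72 to -2.02, adjusted p at most 0.0938), and kept without KO HF fasted 3, WT HF fed 4, KO HF fed 4, KO LF fed 2, KO LF fasted 1 or 2, WT LF fasted 3, WT LF fed 1 or WT HF fasted 4.

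For the other members the 4 fasting effects were closer together than for Per1. Besides Per1, Nr1d1 and Per2 had an unadjusted p below 0.05 for the difference between diets (edgeR adjusted p = 0.335 and 0.364). Per2 was at -0.90 in WT LF and in KO LF, -0.31 in WT HF and 0.29 in KO HF. Its difference between diets was 0.89 (95% interval 0.02 to 1.77). Within single groups of mice 7.54% of all genes passed in WT LF, 13.8% in KO LF, 0.424% in WT HF and 0.527% in KO HF, and besides Per1 the only member to pass was Npas2 in KO LF (-1.78 ± 0.58, adjusted p = 0.0331), a call lost without KO LF fed replicate 1, 3 or 4 or KO LF fasted replicate 1 or 4 (adjusted p at most 0.113). Dbp was between 1.19 and 1.91 in all 4, and the difference of its effect between diets was -0.40 (95% interval -2.0 to 1.19). Arntl was at -0.13 in WT LF, -0.82 in KO LF, -1.02 in WT HF and -0.94 in KO HF, with a difference between diets of -0.51 (95% interval -1.27 to 0.25). These intervals are wide enough to hold differences of the size seen for the fasting effects themselves.

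**Figure D3:**
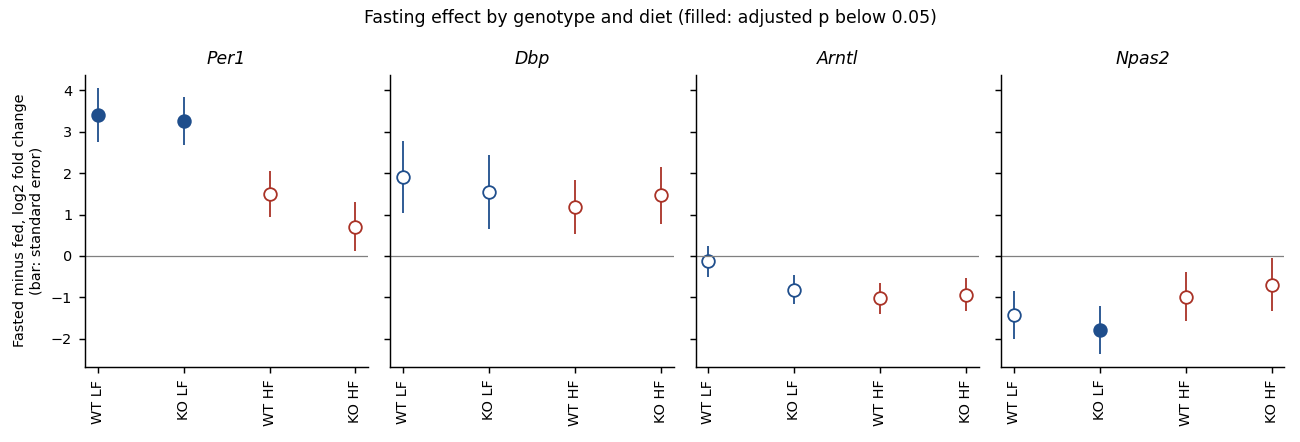
Fasting effect (fasted minus fed, log2 fold change with its standard error) on Per1, Dbp, Arntl and Npas2 in each genotype and diet, LF in blue and HF in red, filled where the adjusted p was below 0.05. Per1 was at 3.41 and 3.27 on LF and at 1.49 and 0.71 on HF, while Dbp lay between 1.19 and 1.91 in all 4.

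Genotype made no difference to the members that this design could show. KO against WT, averaged over the 4 conditions, no member passed, and neither did any in a single condition (lowest adjusted p = 0.89). Each of these comparisons called 1 gene of 11566 (0.00865%), Acadm itself, while 335 genes, none of them a member, had an unadjusted p below 0.05 in the averaged comparison. The averaged KO to WT estimates ran from -0.34 for Per2 (95% interval -0.77 to 0.10) to 0.06 for Clock (95% interval -0.21 to 0.33), and the interval for Dbp was -1.12 to 0.51. The fasting effect did not differ between KO and WT for any member (0 of all genes passed, with 573 at an unadjusted p below 0.05), with Per1 at -0.46 (95% interval -1.70 to 0.77).

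The members varied much between mice of the same group. The standard deviation of log2 CPM within the 8 groups was 1.14 for Per3, above 99.2% of all genes tested, 1.05 for Dbp (98.7%), 0.835 for Per1 (92.4%) and 0.743 for Nr1d1 (86.5%), against a median of 0.424. Clock (0.357) and Nr1d2 (0.369) lay below that median. Among genes of a like level (within 0.5 on the log2 scale), the percentiles were 99.5 for Per3, 99.7 for Dbp, 97.0 for Per1, 98.2 for Nr1d1 and 96.5 for Arntl, whereas Npas2, a low gene, was at 59.1. On the same scale Per2 was at 93.2, Nr1d2 at 84.0 and Clock at 53.8. A pair of WT HF fed mice shows the range: replicate 3 had 45.9 CPM of Dbp, 22.6 of Per3 and 15.8 of Arntl, and replicate 4 had 3.56 of Dbp, 2.84 of Per3 and 33.1 of Arntl.

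Pooled over both diets, the levels of Arntl and Dbp in single mice ran against each other. Over the 15 fed mice Arntl and Dbp had r = -0.80 (permutation p = 0.00031, Benjamini-Hochberg adjusted p = 0.00434 over 14 pairs and feeding states) and rho = -0.74 (permutation p = 0.00248, adjusted p = 0.0174). Without the 2 mice farthest from the Arntl median r was -0.62, and within diets it was -0.86 in the 8 HF fed and -0.11 in the 7 LF fed mice, where Dbp had at most 17 counts. Over the 15 fasted mice r was -0.51 (permutation p = 0.051, adjusted p = 0.0793) and rho -0.66 (permutation p = 0.0083, adjusted p = 0.0232), with r = -0.83 without the 2 farthest mice. Within diets it was -0.56 in the 7 HF fasted and -0.02 in the 8 LF fasted mice, so that r was near 0 inside the LF groups. Within lanes it was -0.89 and -0.48 in fed mice (lanes 7 and 8) and -0.45 and -0.81 in fasted mice. Centred on the group means, r was -0.64 in fed and -0.38 in fasted mice. The permutations, here and for the pairs below, shuffled mice across diets and genotypes. Their p-values therefore also take in differences between groups.

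Arntl and Npas2 varied together, with r = 0.77 in fed mice (permutation p = 0.00065, adjusted p = 0.00455) and r = 0.68 in fasted mice (permutation p = 0.00521, adjusted p = 0.0178). Spearman's rho was 0.68 (permutation p = 0.00613, adjusted p = 0.0215) and 0.61 (permutation p = 0.0198, adjusted p = 0.0348). Within diets r was 0.83 in HF fed, 0.70 in LF fasted, 0.56 in HF fasted and -0.10 in LF fed mice, within lanes it was 0.49 to 0.77, and without the 2 farthest mice it was 0.51 in fed and 0.48 in fasted mice. Centred on the group means it was 0.69 in fed and 0.62 in fasted mice.

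Dbp and Per3, whose start site carries the D-boxes shown above, had r = 0.66 in fed mice (permutation p = 0.00722, adjusted p = 0.0178) and 0.67 in fasted mice (permutation p = 0.00473, adjusted p = 0.0178), with rho = 0.60 (permutation p = 0.0199, adjusted p = 0.0348) and 0.79 (permutation p = 0.00065, adjusted p = 0.0091). Within diets r was 0.80 in HF fed and 0.49 in HF fasted mice and 0.02 and 0.25 in the LF groups, within lanes it was 0.61 to 0.90, and without the 2 farthest mice it was 0.62 and 0.80. Centred on the group means it was 0.71 in fed and 0.31 in fasted mice. Whether the D-boxes bear on this relation was not tested.

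Arntl and its repressor Nr1d1 had r = -0.63 in fasted mice (permutation p = 0.0123, adjusted p = 0.0247), with rho = -0.69 (permutation p = 0.00557, adjusted p = 0.0215), -0.79 without the 2 farthest mice and -0.60 and -0.69 within lanes 7 and 8. Within diets this was -0.47 in LF fasted and 0.05 in HF fasted mice, and it was -0.37 after centring on the groups. In fed mice r was -0.08 over all 15, and it went opposite ways in the parts, at 0.73 in LF and -0.77 in HF mice and at -0.84 on lane 7 and 0.58 on lane 8. Nr1d1 and Nr1d2 had r = 0.56 in fed (adjusted p = 0.0509, permutation test) and 0.66 in fasted mice (adjusted p = 0.0178, permutation test). In fasted mice this was 0.40 without the 2 farthest mice, 0.42 within LF and -0.21 within HF, and 0.25 after centring on the groups, so the relation over all fasted mice did not hold within both diets. Per1 and Per2 had r = -0.26 and -0.42 (adjusted p = 0.406 and 0.17, permutation tests) and Arntl and Per2 r = -0.01 and -0.35 (adjusted p = 0.972 and 0.246, permutation tests) in fed and fasted mice, none of which passed. Spearman's rho was 0.46 and 0.64 for Nr1d1 and Nr1d2 (adjusted p = 0.121 and 0.0275, permutation tests), -0.30 and -0.31 for Per1 and Per2 (adjusted p = 0.317 for each, permutation tests) and -0.04 and -0.50 for Arntl and Per2 (adjusted p = 0.961 and 0.096, permutation tests).

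The ratio of Dbp to Arntl in a single mouse (log2 of counts with 0.5 added to each) puts both ends of the loop on 1 scale. It was -7.48, -3.52 and -2.67 (lowest, median and highest) in LF fed, -3.31, -0.94 and 0.88 in LF fasted, -3.54, -1.06 and 1.53 in HF fed and 0.36, 2.0 and 3.04 in HF fasted mice. Dbp thus exceeded Arntl in counts in all 7 HF fasted mice, in 2 of 8 HF fed, 1 of 8 LF fasted and 0 of 7 LF fed mice. Since both genes passed in the fasting and diet comparisons, this is a description and not a further test.

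**Figure D4:**
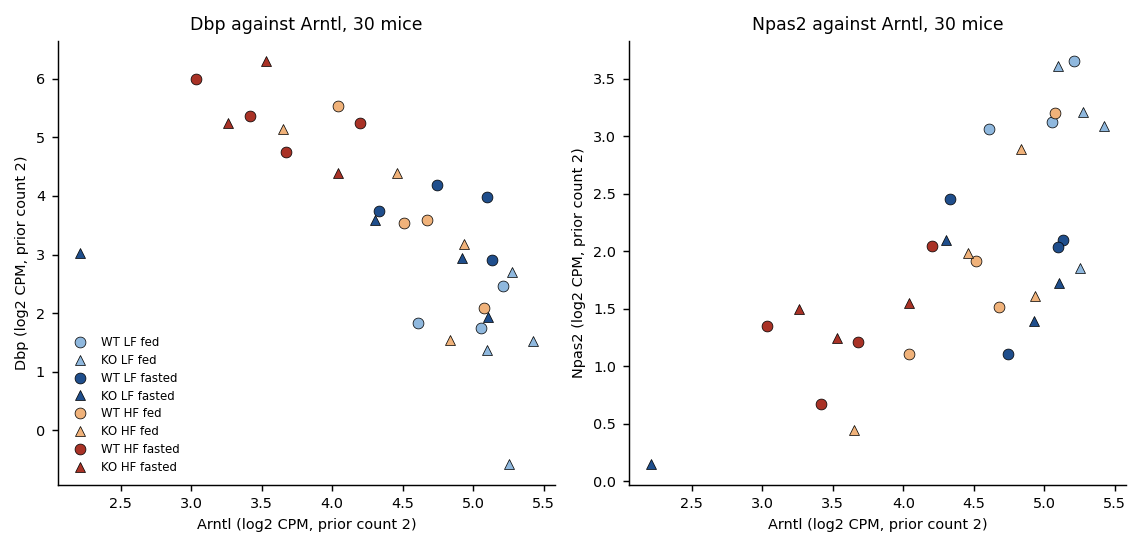
Dbp (left) and Npas2 (right) against Arntl in each of the 30 mice, all in log2 CPM with a prior count of 2, coloured by diet and feeding state, with circles for WT and triangles for KO mice. Dbp fell as Arntl rose (r = -0.80 in fed mice) and Npas2 rose with Arntl (r = 0.77 in fed mice), with KO LF fasted replicate 1 (3.97 CPM of Arntl) far to the left in both panels.

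Over the 30 mice the genes outside the set whose log2 CPM was most like that of Dbp were Bhlhe41 (r = 0.80), a clock repressor, Tef (0.78), a D-box factor of the same family, Abcc3 (0.78), Abcd2 (0.75) and Atp6v1a (0.74). Those most like Arntl were Acmsd (0.74), Insc (0.74), Dirc2 (0.73), Fst (0.72) and Prkaa2 (0.72). These are the 5 highest of all genes tested, over mice that share their groups, and are given as a description.

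The rest of the clock was read from lists. Of 10 further core clock genes and repressors 8 were tested, and with fasting 2 rose and 2 fell, with a list median of -0.01, where 18.9% of all genes passed (9.77% higher and 9.14% lower). The D-box factors Tef (0.83 ± 0.19) and Hlf (0.73 ± 0.10) rose, as Dbp did, and the repressors Bhlhe40 (-1.0 ± 0.20) and Cry1 (-0.90 ± 0.21) fell. With HF in fasted mice Bhlhe40 rose (1.11 ± 0.29), and averaged over both feeding states Tef rose (0.75 ± 0.19) and Nfil3, the D-box repressor, fell (-0.90 ± 0.20). Of 11 kinases, phosphatases and ubiquitin ligases that set the life of PER and CRY proteins, all tested, Ppp2ca, a catalytic subunit of a protein phosphatase, rose (0.28 ± 0.07) and none fell with fasting, a smaller share than the 18.9% of all genes, and none passed for diet. The list median was 0.10.

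Of 15 rhythmic liver output genes 14 were tested, and with fasting 7 rose and 2 fell (median 0.42), against 9.77% of all genes higher and 9.14% lower. The rises included Por, the electron donor of P450 enzymes (2.36 ± 0.14), Cyp7a1, the rate-limiting enzyme of bile acid synthesis (2.08 ± 0.30), and Usp2, a deubiquitinase (1.70 ± 0.28), and Gys2, liver glycogen synthase (0.64 ± 0.12), while Elovl3, a fatty acid elongase, fell (-0.68 ± 0.22). With HF in fasted mice none rose and 3 fell, Por (-1.48 ± 0.19), Insig2 (-0.82 ± 0.16) and Lpin1 (-1.90 ± 0.48), against 3.75% of all genes higher and 2.90% lower, and Avpr1a fell with HF in fed mice (-0.90 ± 0.20). The fasting effect was smaller on HF for Por (difference -2.02 ± 0.28) and Insig2 (-0.91 ± 0.22), as for Per1, whose call lay near the threshold.

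Genes that answer to signals other than the clock moved in the same comparisons as Per1. Of 8 glucocorticoid-responsive genes Cdkn1a (2.22 ± 0.26), Fkbp5 (1.92 ± 0.27) and Klf9 (0.46 ± 0.09) rose with fasting and none fell, against 9.77% of all genes higher and 9.14% lower, while Dusp1, a phosphatase of MAP kinases, was at -0.63 ± 0.26 without passing (adjusted p = 0.0921). With HF in fasted mice Cdkn1a (-2.44 ± 0.35), Fkbp5 (-1.58 ± 0.36) and Zbtb16 (-2.15 ± 0.51) fell, with a list median of -0.95, where 2.90% of all genes fell. The fasting effect on Cdkn1a was smaller on HF (-2.36 ± 0.51). Cdkn1a also answers to other signals. Of 8 temperature-responsive genes, 7 of them tested, Cirbp, which rises in the cold (1.22 ± 0.14), and Hspa8 (0.56 ± 0.16) rose with fasting, and Cirbp fell with HF in fasted mice (-0.89 ± 0.19). Rbm3, the other cold-induced gene of the list, did not pass in either comparison, at -0.42 ± 0.26 with fasting (adjusted p = 0.311) and 0.18 ± 0.38 with HF in fasted mice (adjusted p = 0.879). The part of either signal in the values of Per1 was not tested.

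**Figure D5:**
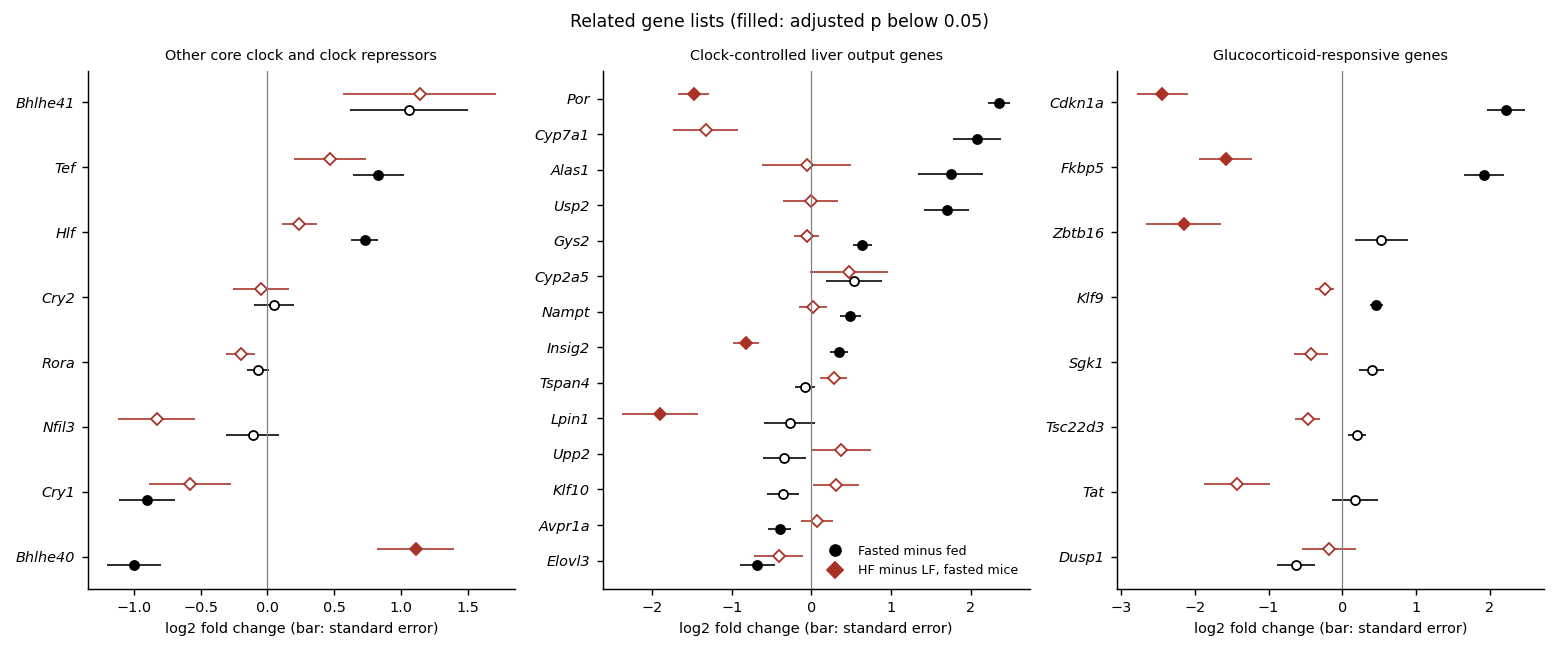
Log2 fold change with its standard error for genes of 3 related lists in fasted against fed mice (black circles) and in HF against LF fasted mice (red diamonds), filled where the adjusted p was below 0.05. Por, Cdkn1a and Fkbp5 were above 0 with fasting (2.36, 2.22 and 1.92) and below 0 with HF in fasted mice (-1.48, -2.44 and -1.58), and Bhlhe40 showed the reverse (-1.0 and 1.11).

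Of 8 genes taken as a check of the feeding state, 3 rose and 4 fell with fasting, against 9.77% of all genes higher and 9.14% lower. Among them were Cyp4a14 (4.97 ± 0.49), Angptl4 (2.16 ± 0.19), Thrsp (-3.88 ± 0.43) and Fasn (-3.28 ± 0.31). The effect on Cyp4a14 (-4.03 ± 0.85) and Angptl4 (-1.42 ± 0.37) was smaller on HF. RNA of other tissues was present in single mice. The summed acinar pancreas genes reached 17100 CPM in an HF fasted mouse and 2500 CPM in an HF fed mouse, against medians of 1.29 to 4.22 CPM in the 4 diet and feeding classes, and the adrenal cortex genes reached 294 CPM in an LF fasted mouse. Liver macrophage genes were at a median of 395 CPM (315 to 450) in fed and 294 CPM (215 to 621) in fasted mice. In bulk liver, fewer cells of a type and less RNA per cell cannot be told apart, and the part of these cells in the clock gene values was not tested.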

How the data were processed

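Livers of 32 mice were sequenced from the 3′ end (QuantSeq), and the deposited table holds raw read counts per Ensembl gene that the authors made with HISAT 0.1.5, SAMtools 1.2 and HTSeq 0.6.1p1 (union mode). With 3′ reads, levels were not scaled by length. The strand setting of the counting is not given in the sources used here. Reads where Nr1d1 overlaps Thra, Dbp overlaps Sphk2, or Ciart overlaps its antisense neighbour may therefore be lost or given to the wrong gene. Arntl and Npas2 overlap Gm45355 and Gm20428 on the other strand. On the same strand Per3 overlaps Camta1, Clock overlaps Gm43658 and Ube2n-ps1, and Npas2 overlaps Gm3617. Symbols came from GENCODE (19913 of 20076 genes matched, the rest held 0.125% of counts). Groups, lanes and ages came from the labels. The labels place 16 mice on each lane, where the methods describe fewer.

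Counts were tested in edgeR 4.0.16 (TMM, filterByExpr, robust quasi-likelihood F test on the 8 group means of 30 mice), with Benjamini-Hochberg adjustment over 11566 genes and calls at 0.05. SE is the log2 fold change divided by the square root of F. Levels are CPM on TMM library sizes, correlations used log2 CPM (prior count 2) and 100000 permutations, two-sided. Alternatives were DESeq2 1.42.0, limma voom 3.58.1, other scaling, no filter, lane, age or replicate terms, lanes alone, the 2 left-out mice, 2 groups alone and each mouse left out. The fit was tested on simulated counts. The members and lists were chosen with earlier results of these data known, and all 10 members are named, with list genes by smallest p or a diet call. Elovl3, Dusp1 and Rbm3 fall outside that rule and were named after their values were seen. Some genes of the lists are not reported here, and the lists' counts and medians leave them out. The labels name separate mice as replicates, and none of 48 pairs of replicates within a group had counts that agree within sampling noise. Intervals on shares of mice are exact (Clopper-Pearson) and cover counting error only.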

Additional observations from a re-analysis of the deposited data

Results flagged for a closer look

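Of 59 groups of 4 mice and clock gene values examined for a single mouse far from the other 3, 3 stood out, where chance alone gives about 1 in 20. Ciart was at 13.4 CPM (36 counts) in WT LF fasted replicate 1, where the next highest mouse of its group had 1.52 CPM. Ciart was at 0.399 CPM in KO HF fed replicate 2, which is a single count where the other 3 mice had none. Clock was at 18.1 CPM in WT HF fasted replicate 2, against 24.9 to 26.2 CPM in the other 3. The fasting effect on Per1 differed between the diets, by -2.24 on the log2 scale (HF minus LF, edgeR adjusted p = 0.04, test of the difference itself). This call lay near the threshold, and it was lost in most fits without a single mouse and in several other settings.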

How the results depend on the processing

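The 4 members called for fasting averaged over the groups kept their sign and passed in every setting run except lane 7 alone, where 0 passed, and leaving out single mice gave 4 to 5 calls. In WT LF 2 members passed with no filter (3.94% of all genes did) or with the 2 groups alone (10.3%), and 1 to 2 without single mice. In WT HF 1 passed with the 2 groups alone, a fit whose share of all genes was not drawn up. The main fit called 0 there (0.424% of all genes). In KO LF 1 passed with all 32 mice (6.39% of all genes) or lane as a term (13.6%). The count was also 1 with lane 7 alone (4.69%) or the 2 groups alone (7.73%), and 1 to 3 without single mice. For HF against LF in fed mice DESeq2 called 1 (0.832% of all genes), and fits without single mice 0 to 1. For HF against LF in fasted mice all 32 mice gave 1 (2.55% of all genes), and lane 7 alone 2 (2.13%), with 2 to 6 without single mice. Averaged over both states all 32 mice gave 2 (0.704%), with 3 to 5 without single mice. The difference of the fasting effect between diets gave 0 calls with all 32 mice (0.191% of all genes passed), WT LF fed replicate 2 put back (1.31%) or limma voom (2.52%). It also gave 0 with no filter (1.23%), lane as a term (2.18%), a replicate block (2.04%) or lane 8 alone (0.987%), and 0 to 2 without single mice. KO against WT gave 0 members in every setting. Over 5556 values of single members under the alternatives, 98 calls were lost, 17 gained and 0 reversed, and 280 values that passed in neither fit changed sign. The cause of these changes was not tested. Replicate numbers did not pair the mice (98 pairs of the same number, correlations -0.21 to 0.16, median 0.00659), and a replicate block moved the difference between diets from 1 to 0 calls and no other count of members by over 1.5 times. At these depths Ciart and, in LF fed mice, Dbp and Per1 rest on few counts.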
